A study of Mus musculus with 23 samples.

Results

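The genes described here are 10 genes of the inflammasome and of the interleukin-1 (IL-1) family, namely Nlrp3, Nlrc4, Aim2, Pycard, Casp1, Casp4, Gsdmd, Il1a, Il1b and Il18. They were found by symbol among the 47729 gene identifiers of the count matrix. All 10 passed the filter on low counts, which kept 19597 genes. The matrix holds 23 RNA-seq libraries of dendritic cells (DCs) sorted from the spleen of wild type BALB/c mice, and the series asks how DC subsets differ in the immune responses they can induce. Of each subset there were 2 libraries from untreated mice, one from each of 2 pools of mice, and 4 libraries (3 for DC2) from pools of mice labelled TLI, which the labels leave unexpanded and which usually abbreviates total lymphoid irradiation. Dose, time after treatment and age are not in the labels. The sorted subsets were DC1a (CD8hi CD172-), DC1b (CD8Int CD172+), DC2 (CD8lo CD172hi) and DC3 (CD8- CD172lo). Pools 1 and 2 of both treatments carry the batch label 1 and TLI pools 3 and 4 the batch label 2, so batch 2 holds TLI libraries alone, and the labels do not say at which step the batches were separate. A library stands for a pool of mice, and the TLI pools and the untreated pools that share a number are different mice.

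Inflammasomes are protein assemblies that form in the cytosol on microbial products or damage. A sensor such as NLRP3, NLRC4 or AIM2 recruits the adaptor ASC, the product of Pycard, and ASC recruits caspase-1, which cleaves pro-IL-1β, pro-IL-18 and gasdermin D, whose fragments open pores in the membrane. Caspase-4 of the mouse, better known as caspase-11, is triggered by cytosolic lipopolysaccharide and cleaves gasdermin D directly. IL-1α is active without this cleavage. Nlrp3 and Il1b are known as genes that need a priming signal before an inflammasome can act, and mRNA does not show whether an inflammasome was assembled or a cytokine released.

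The 4 genes with at least 1 difference past the threshold (adjusted p under 0.05) were Nlrp3, Pycard, Casp1 and Il1b. The sequences before their RefSeq starts (GRCm38.p6, 250 bases each, read 5′ to 3′ on the strand of the gene) are shown because these are the genes the results turn on. The motifs searched on both strands were TGANTCA (AP-1), GAGGAAGT (PU.1), TGACGTCA (CRE), the core of an interferon response element and a pair of NF-kB strings that can overlap each other, and capitals mark a match. By GENCODE M21 (GRCm38) the genes lie at chr11:59541568-59566956 (Nlrp3, ENSMUSG00000032691), chr7:127989708-127993867 (Pycard, ENSMUSG00000030793), chr9:5298517-5307265 (Casp1, ENSMUSG00000025888) and chr2:129364570-129371139 (Il1b, ENSMUSG00000027398). Casp4 follows Casp1 on chromosome 9 and Il1a lies beside Il1b on chromosome 2. The sequences are chr11:59541319-59541568 on the + strand for Nlrp3, chr7:127993868-127994117 on the - strand for Pycard, chr9:5298267-5298516 on the + strand for Casp1 and chr2:129371140-129371389 on the - strand for Il1b.
Nlrp3: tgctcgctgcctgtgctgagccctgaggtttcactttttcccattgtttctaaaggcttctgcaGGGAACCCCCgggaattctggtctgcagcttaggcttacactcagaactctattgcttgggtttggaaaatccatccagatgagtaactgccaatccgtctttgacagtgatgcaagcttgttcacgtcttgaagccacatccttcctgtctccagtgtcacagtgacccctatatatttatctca
Pycard: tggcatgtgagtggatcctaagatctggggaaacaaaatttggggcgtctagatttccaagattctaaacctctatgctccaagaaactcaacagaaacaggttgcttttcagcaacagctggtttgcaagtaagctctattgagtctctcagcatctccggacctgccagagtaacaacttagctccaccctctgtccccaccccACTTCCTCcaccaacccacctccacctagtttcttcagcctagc
Casp1: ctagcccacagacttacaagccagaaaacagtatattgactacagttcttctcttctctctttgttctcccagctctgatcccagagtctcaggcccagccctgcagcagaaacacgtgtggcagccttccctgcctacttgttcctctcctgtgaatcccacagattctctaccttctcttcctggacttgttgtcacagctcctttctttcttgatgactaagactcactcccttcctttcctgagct
Il1b: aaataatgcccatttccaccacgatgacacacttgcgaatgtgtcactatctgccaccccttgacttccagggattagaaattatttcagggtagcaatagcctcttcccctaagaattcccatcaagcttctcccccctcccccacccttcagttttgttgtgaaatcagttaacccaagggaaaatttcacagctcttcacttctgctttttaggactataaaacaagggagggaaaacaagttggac
Nlrp3 held 1 match to the second NF-kB string on the opposite strand, from base -186 to base -177, and a further RefSeq window of Nlrp3 held none. Pycard held 1 match to the PU.1 string on the opposite strand, from base -44 to base -37. Casp1 and Il1b held no match in these 250 bases. Of the other members, Aim2 held a PU.1 match, Casp4 held overlapping NF-kB matches, Il1a held an AP-1 match from base -12 to base -6, and Nlrc4 and Il18 held none. Windows were found for 9 of the 10 members, with Gsdmd without one. Among all 32851 RefSeq windows, searched over these bases, 6.75% held the AP-1 string, 2.98% the interferon core, 1.41% and 1.53% the NF-kB strings, 2.44% the PU.1 string and 1.55% the CRE. A match is a run of letters and was not measured as a binding site here.

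Total counts per library ran from 19256447 to 36997890, with 19256447 to 28688091 in batch 1 and 28456134 to 36997890 in batch 2. Levels are CPM, counts scaled to the library total, and 3 counts, the level taken as the floor, are 0.0811 to 0.156 CPM. That floor covers counting error only, and amplified reads are not independent molecules. The subset markers followed the labels in the untreated libraries for the most part. Cd8a lay at 450 to 468 CPM in DC1a, 155 to 390 in DC1b, 0.415 to 0.610 in DC2 and 0.410 to 41.6 in DC3, and Sirpa, which encodes CD172a, lay at 196 to 252 CPM in DC2 and at most 91 CPM in the other untreated subsets. After TLI 1 DC1b library had Cd8a at 0.327 CPM. DC3 had a summed level of the 8 DC1 markers of 2394 to 2415 CPM, close to 2683 to 3006 CPM in DC1a, and Sirpa at 0.235 to 1.09 CPM. Untreated DC1b libraries also held all 5 plasmacytoid DC markers, at a summed 2817 to 3083 CPM against 49.2 to 143 CPM in DC1b after TLI. TLI libraries of batch 1 held the 6 erythroid markers at a summed 19288 to 133558 CPM, against 143 to 7144 CPM in batch 2 and 56.3 to 2276 CPM in untreated mice. In DC1b after TLI the 10 neutrophil markers summed to 20563, 1389, 1731 and 9026 CPM in pools 1 to 4, against 23 and 1.16 CPM in untreated DC1b. In these bulk samples a lower level can be fewer cells that express a gene or less RNA in each cell, and these cannot be told apart.

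Il1b had the highest level per length among the 10 genes, and Nlrc4 and Il1a the lowest. The median over the 23 libraries, in CPM per kilobase of exon, was 759 for Il1b, 110 for Casp1, 44.8 for Pycard, 32.2 for Il18, 29.5 for Gsdmd, 9.78 for Aim2, 7.48 for Casp4, 1.98 for Nlrp3, 0.830 for Il1a and 0.595 for Nlrc4. The length was that of all annotated exons of a gene merged, 3800 bases for Pycard and 1497 for Casp1, which can exceed the length of its mRNA. In CPM the medians of these 2 genes were 170 and 165, so their order depends on that length. In the 8 untreated libraries alone Il1a was lowest per length (0.149) and Nlrc4 next (0.466). Per length, Il1b and Casp1 thus lay above all 3 sensors in their medians. Il1a had no count in 8 of the 23 libraries and Nlrc4 in 3, while the other 8 genes were above the floor in every library.

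The first question was which of the genes differed between subsets of untreated mice, and 7 of 60 pairs of gene and comparison passed the threshold of edgeR's quasi-likelihood test (adjusted over all genes). These were 2 of 10 in DC2 against DC1a (1.91% of all genes called), 2 of 10 in DC2 against DC1b (0.398%), 2 of 10 in DC3 against DC2 (0.837%) and 1 of 10 in DC3 against DC1a (0.184%). None of 10 was called in DC1b against DC1a (0.837%, with 4 of 10 at an unadjusted p under 0.05 beside 10.7% of all genes) or in DC3 against DC1b (0.393%, with 3 of 10 beside 8.43%). After TLI, 5 of 60 passed, namely 2 of 10 in DC2 against DC1a (3.40%), 1 of 10 in DC1b against DC1a (1.42%), 1 of 10 in DC3 against DC1a (0.750%) and 1 of 10 in DC3 against DC2 (1.37%). None of 10 passed in DC2 against DC1b (0.214%, with 1 of 10 unadjusted beside 10.4% of all genes) or DC3 against DC1b (1.11%, with 3 of 10 unadjusted beside 11.9%). With DESeq2 the counts were 13 of 60 and 7 of 60. Over all genes DESeq2 made 7210 and 9007 calls in these comparisons, where edgeR made 894 and 1619. The median log2 fold change of the 10 genes was 0.90 for untreated DC2 against DC1a and 0.98 for DC2 against DC1b, beside 0.11 and 0.00 over all genes. For DC3 against DC2 it was -1.12, beside 0.00.

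Among the sensors, Nlrp3 followed the subset. In untreated mice Nlrp3 stood at 49.6 and 73.0 CPM in DC2 and at 24.0 and 27.1 CPM in DC3. It stood at 8.02 and 3.09 CPM in DC1a and at 1.74 and 2.36 CPM in DC1b. No untreated library of a subset overlapped with those of another, in the order DC2, DC3, DC1a, DC1b, and the neighbours DC2 and DC3 did not differ past the threshold (log2 fold change -1.31 ± 0.71, SE, for DC3 minus DC2, adjusted p = 0.511), nor did DC3 and DC1a (1.94 ± 0.73, adjusted p = 0.567) or DC1b and DC1a (-1.72 ± 0.72, adjusted p = 0.408). DC2 exceeded DC1b 31.3-fold (log2 fold change 4.97 ± 0.83, SE, adjusted p = 0.00873) and DC1a 9.51-fold (3.25 ± 0.76, adjusted p = 0.0353). The call against DC1b was lost without DC1b pool 1 (adjusted p = 0.198), DC1b pool 2 (0.128) or DC2 pool 2 (0.0518), with no filter on low counts (0.0523) and in the untreated libraries alone (0.0582). The call against DC1a was lost without any single one of the 8 untreated libraries (0.0563 to 0.432), with the pool as a block (adjusted p = 0.0711), with no filter (0.273), with no term for batch (0.106) and in the untreated libraries alone (0.0638). DC3 against DC1b missed the threshold (3.66 ± 0.78, adjusted p = 0.0517) and passed it with DESeq2 (2.09e-05), without DC1b TLI pool 3 (0.0432) or without DC2 TLI pool 4 (0.0279).

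After TLI the order of the Nlrp3 means was DC2, DC1b, DC3, DC1a, so that every place below DC2 was taken by another subset than in untreated mice. The libraries of pools 1, 3 and 4 gave 43.8, 26.2 and 7.0 CPM in DC2. Pools 1 to 4 gave 16.4, 18.7, 6.78 and 16.8 CPM in DC1b, 7.20, 10.9, 11.8 and 6.09 CPM in DC3, and 3.55, 7.72, 3.46 and 3.29 CPM in DC1a. All 4 subsets overlapped with each other, DC1a by its pool 2 alone. DC2 was 4.78-fold above DC1a (2.26 ± 0.54, SE, adjusted p = 0.0278), which was the only Nlrp3 call after TLI by edgeR (DESeq2 also called DC1b against DC1a, adjusted p = 0.0127). It was lost with the pool as a block (adjusted p = 0.0759), without DC1a TLI pool 1 (0.0866), 3 (0.0793) or 4 (0.0845), and without DC2 TLI pool 1 (0.120) or 3 (0.10). The same held with no filter (0.169), with no term for batch (0.0706), in the TLI libraries alone (0.0610) and in batch 2 alone (0.406). The largest difference of Nlrp3 between TLI and untreated mice was in DC1b, where all 4 TLI libraries lay above both untreated ones. It was 10.7-fold (3.42 ± 0.75, SE, 95% interval 1.85 to 4.99 on the log2 scale) with adjusted p = 0.0541, just outside the threshold. It passed with DESeq2 (8.81e-06), without DC1b TLI pool 3 (0.0481) and without DC2 TLI pool 4 (0.0333). The neutrophil and plasmacytoid DC markers of DC1b moved between the same groups, and so did the 12 monocyte or macrophage markers (7837 to 26088 CPM after TLI, 3688 and 5840 CPM untreated), and their part in this result was not tested. In DC1a, DC2 and DC3 the TLI minus untreated difference of Nlrp3 was 0.06 ± 0.64, -0.94 ± 0.66 and -1.06 ± 0.63. A test of whether the difference was equal in the 4 subsets gave an unadjusted p of 8.27e-04 by edgeR's quasi-likelihood test, adjusted p = 0.210 over all genes, and 0.000882 with DESeq2.

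Aim2 encodes a sensor of double-stranded DNA and was at its highest in untreated DC2, at 88.3 and 116 CPM. The other untreated subsets spread more widely, with 39.7 and 58.6 CPM in DC1a, 57.5 and 20.6 CPM in DC3 and 32.5 and 13.5 CPM in DC1b. Untreated DC2 was 4.75-fold above DC1b, which did not pass (2.25 ± 0.58, adjusted p = 0.128) except with DESeq2 (0.00556). After TLI, Aim2 ran from 40.6 to 68.2 CPM in DC2 and from 10.7 to 40.1 CPM in the other subsets. Both untreated DC2 libraries lay above all 3 DC2 libraries of TLI mice, with a log2 difference of -1.33 ± 0.52 that was not called (adjusted p = 0.473). Nlrc4, which senses bacterial flagellin and secretion systems through the NAIP proteins, never exceeded 20.8 CPM. It had no count in DC1a untreated pool 2, DC1a TLI pool 3 and DC3 untreated pool 1, and reached 20.6 CPM in DC2 untreated pool 2, 20.8 CPM in DC1b TLI pool 3 and 19.3 CPM in DC3 TLI pool 3. Libraries of the same group lay far apart, as in untreated DC2 with 3.62 and 20.6 CPM. No comparison of Nlrc4 was called by edgeR, and DESeq2 called untreated DC3 (0 and 0.392 CPM) below DC2 with adjusted p = 0.0491, where edgeR gave 0.433.

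Pycard, the gene of the adaptor ASC, was highest in untreated DC3. The libraries gave 575 and 377 CPM in DC3, 208 and 184 CPM in DC1b, 118 and 119 CPM in DC1a, and 116 and 107 CPM in DC2. The 4 subsets did not overlap with each other. Untreated DC3 also held the NK cell markers at a summed 115 to 258 CPM, against at most 7.25 CPM in the other untreated subsets, and the B cell markers at 127 to 307 CPM, against at most 124 CPM, and their part in the Pycard result was not tested. DC3 was 4.08-fold above DC2 (log2 fold change 2.03 ± 0.33, SE, adjusted p = 0.00475) and 3.32-fold above DC1a (1.73 ± 0.32, adjusted p = 0.0338). The first call was lost without DC2 pool 1 (0.0511), DC2 pool 2 (0.0855) or DC3 pool 1 (0.0666), and with no term for batch (0.106). The second was lost with the pool as a block (adjusted p = 0.0751) and without any single one of 11 libraries, namely the 8 untreated ones, DC1a TLI pools 1 and 4 and DC1b TLI pool 2 (0.0518 to 0.466). It was lost too with no term for batch (0.511), with no filter on low counts (0.163), in batch 1 alone (0.102) and in the untreated libraries alone (0.0905). DC3 against DC1b was not called (1.3 ± 0.32, adjusted p = 0.119) except with DESeq2 (0.00778).

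After TLI the Pycard levels of DC3 and DC2 met. Pools 1 to 4 gave 209, 134, 273 and 353 CPM in DC3 and 170, 158, 228 and 206 CPM in DC1b. Pools 1, 3 and 4 gave 149, 385 and 218 CPM in DC2. DC1a was lowest on average with 85.1, 96.8, 141 and 135 CPM, where in untreated mice DC2 had been lowest. No pair of subsets was called for Pycard after TLI by edgeR, while DC3 against DC1a was called by DESeq2 (adjusted p = 0.0182) and without DC3 TLI pool 2 (1.11, adjusted p = 0.0224). In DC3 all 4 TLI libraries lay below both untreated ones, by -1.23 ± 0.28 on the log2 scale with adjusted p = 0.172, and this passed with the pool as a random block (adjusted p = 0.0324, by limma) and with DESeq2 (0.00457). In DC2 all 3 TLI libraries lay above both untreated ones (0.65 ± 0.31, adjusted p = 0.568). Between the TLI pools, Pycard rose 1.65-fold from batch 1 to batch 2 (0.72 ± 0.17, adjusted p = 0.00669). A gene on the opposite strand, Gm45205, shares 485 exonic bases with Pycard, and strand is not stated to have been used in counting, but its count was at most 8.77% of that of Pycard, with a median of 0.427%.

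Casp1, the gene of the protease of the canonical inflammasome, set DC1a apart from the other subsets after TLI. DC1a gave 45.6, 61.4, 31.8 and 48.2 CPM in pools 1 to 4. The other subsets lay higher, with 129, 158, 239 and 244 CPM in DC1b, 175, 245 and 303 CPM in DC2 and 232, 121, 215 and 170 CPM in DC3. No DC1a library reached the lowest of the other 11. The excess over DC1a was 3.78-fold in DC1b (1.92 ± 0.29, SE, adjusted p = 0.00145), 3.95-fold in DC2 (1.98 ± 0.31, adjusted p = 0.00127) and 3.36-fold in DC3 (1.75 ± 0.29, adjusted p = 0.00437). All 3 were called in each of the 23 fits that left out a single library, with adjusted p up to 0.0266. The call of DC3 against DC1a was lost with the batch 2 libraries alone (2.05, adjusted p = 0.104). The monocyte or macrophage markers after TLI summed to 450 to 1723 CPM in DC1a, 7837 to 26088 CPM in DC1b, 6013 to 13806 CPM in DC2 and 1442 to 3854 CPM in DC3. The neutrophil markers summed to 6.36 to 14.1 CPM in DC1a and 1389 to 20563 CPM in DC1b, and the part of either list in the Casp1 result was not tested. DC1b, DC2 and DC3 did not differ from each other in a called way, and their log2 differences were between -0.24 and 0.06 with SEs of 0.28 to 0.31.

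In untreated mice the order of the subset means was the same, and no pair was called by edgeR. Casp1 stood at 87.9 and 110 CPM in DC1a, 143 and 165 CPM in DC3, 163 and 280 CPM in DC1b, and 311 and 254 CPM in DC2. DC1a again lay below every other library, but its differences from DC2 (1.31 ± 0.41, adjusted p = 0.129, and 0.0264 with DESeq2), DC1b (0.88 ± 0.40, adjusted p = 0.450) and DC3 (0.38 ± 0.40, adjusted p = 0.884) were not called. The 4 TLI libraries of DC1a lay below both untreated ones, with a log2 difference of -1.09 ± 0.35 and adjusted p = 0.374. Whether the gap to DC1a differed with treatment was not shown, since the test over the 4 subsets gave adjusted p = 0.653.

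**Figure D1:**
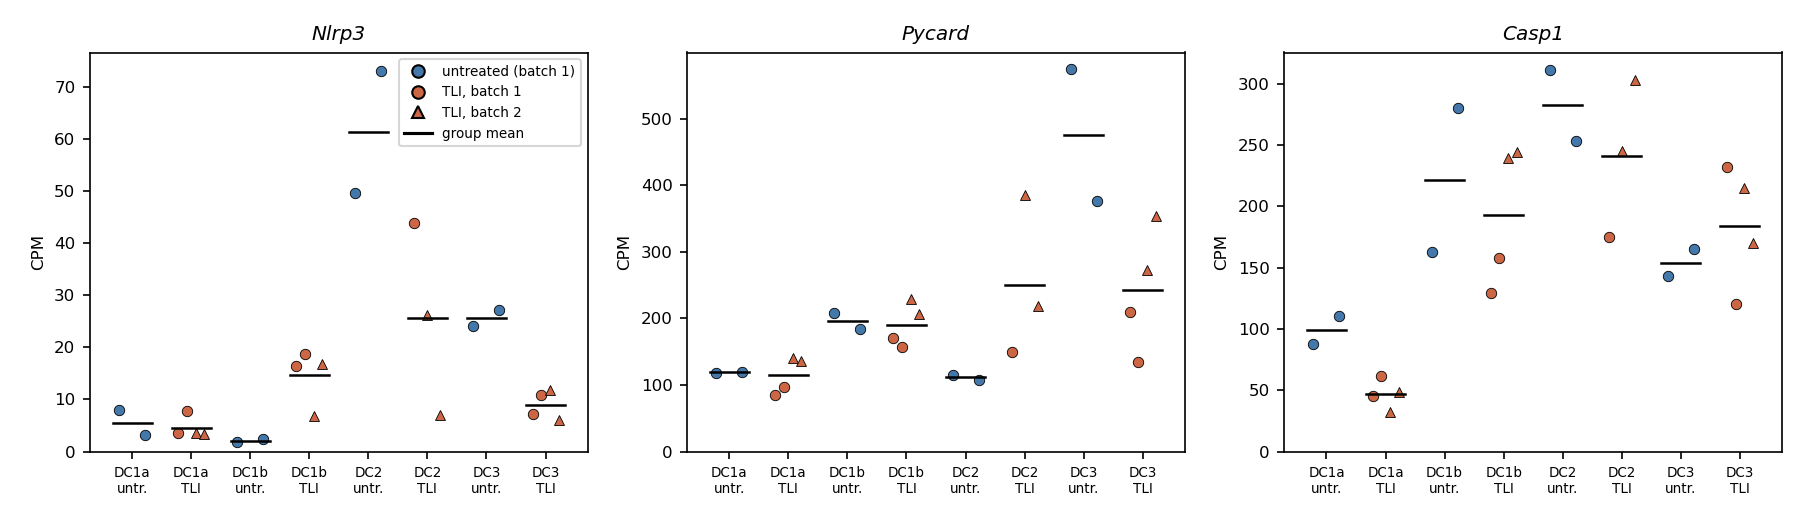
Level in CPM of Nlrp3, Pycard and Casp1 in each library by subset and treatment (untr., untreated). Points are libraries, triangles are batch 2, and lines are group means. Nlrp3 is highest in untreated DC2 (49.6 and 73.0 CPM), Pycard in untreated DC3 (575 and 377 CPM), and the 4 Casp1 values of DC1a after TLI lie at 31.8 to 61.4 CPM under all other groups.

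Casp4 and Gsdmd, which carry the branch that does not need caspase-1 and its pore, had no call in any comparison, by edgeR or by DESeq2. Casp4 ran from 8.46 to 117 CPM over the 23 libraries and pairs of untreated libraries differed widely, with 10.8 and 58.3 CPM in DC3 and 11.4 and 34.9 CPM in DC1b. Its highest value was in DC2 TLI pool 3, beside 49.2 and 26.4 CPM in DC2 TLI pools 1 and 4. Its TLI minus untreated differences were between -0.68 and 0.92 on the log2 scale, each with an SE of 0.75 to 0.83. Gsdmd lay between 23.7 and 174 CPM. In untreated mice it stood at 96.8 and 132 CPM in DC2, 56.0 and 95.1 CPM in DC1b, 62.1 and 70.1 CPM in DC1a, and 52.5 and 37.9 CPM in DC3, so that neighbouring subsets lay close or overlapped. After TLI, all 4 DC1b libraries (76.5 to 174 CPM) lay above all 4 DC3 libraries (34.8 to 73.0 CPM), a 2.65-fold difference (-1.40 ± 0.49 for DC3 minus DC1b, SE) with adjusted p = 0.245.

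Il1b, the gene of pro-IL-1β, was highest in DC2 of untreated mice. The libraries gave 5648 and 8068 CPM in DC2, which is a mean of 6858 ± 1711 CPM (SD, n = 2). They gave 1287 and 2105 CPM in DC1b, 1405 and 1835 CPM in DC1a and 1079 and 1824 CPM in DC3. The last 3 subsets overlapped and none of their pairs was called, with log2 differences of -0.41 to -0.20 and SEs of about 0.34. DC2 was 3.65-fold above DC1a (1.87 ± 0.35, SE, adjusted p = 0.00864), 4.24-fold above DC1b (2.08 ± 0.35, adjusted p = 0.00921) and 4.86-fold above DC3 (-2.28 ± 0.35 for DC3 minus DC2, adjusted p = 0.00352). Single libraries decided some of this. The call against DC1a was lost without DC1a pool 1 (adjusted p = 0.174), DC1a pool 2 (0.0614) or DC2 pool 2 (0.0989), that against DC1b without DC1b pool 1 (0.197) or DC2 pool 2 (0.0907), and that against DC3 without DC3 pool 1 (0.0726). In a fit of the 8 untreated libraries alone all 3 missed the threshold (adjusted p = 0.0657, 0.0941 and 0.0575), and with no term for batch they were lost too (0.680, 0.789 and 0.688). The monocyte or macrophage markers summed to 5388 and 5706 CPM in untreated DC2, 780 and 812 CPM in DC1a, 1910 and 2964 CPM in DC3 and 3688 and 5840 CPM in DC1b, and their part in the Il1b and Nlrp3 results was not tested. The neutrophil markers were at 2.28 and 65.5 CPM in untreated DC2.

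After TLI, Il1b separated by batch before anything else. Pools 1 and 2 gave 2206 and 2913 CPM in DC1a, 2465 and 3014 CPM in DC1b, and 1447 and 2631 CPM in DC3, and pool 1 gave 4765 CPM in DC2. Pools 3 and 4 gave 359 and 281 CPM in DC1a, 426 and 393 CPM in DC1b, 523 and 742 CPM in DC2, and 248 and 157 CPM in DC3. The 8 libraries of batch 2 lay at 157 to 742 CPM, below the lowest of the other 15 at 1079 CPM. Within the TLI libraries Il1b fell 7.88-fold from batch 1 to batch 2 (-2.98 ± 0.19, SE, adjusted p = 2.18e-07), in a comparison in which 17.4% of all genes were called, and the call stood in each of the 23 fits that left out a library. The pools of batch 2 are other mice than those of batch 1, so mice and batch cannot be told apart. The erythroid markers moved with it (19288 to 133558 CPM in batch 1 and 143 to 7144 CPM in batch 2 of the TLI libraries), as did the T cell markers (60.2 to 328 CPM and 2.39 to 35.8 CPM) and the NK cell markers (65.1 to 2606 CPM and 0.0690 to 40.5 CPM). The summed pan-DC markers ran from 18955 to 82842 CPM in batch 1 and from 7764 to 23885 CPM in batch 2 (medians 42029 and 15907 CPM). These ranges overlapped over all subsets together, but within each subset the batch 2 libraries lay below every batch 1 library. Of the 5 pan-DC genes, 3 were called lower in batch 2 and 1 higher. The part of any of these marker lists in the fall of Il1b was not tested.

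No TLI difference of Il1b was called. The fit with a term for batch sets the TLI libraries at the level of batch 1 and gave TLI minus untreated differences of 0.76 ± 0.31 in DC1a, 1.12 ± 0.32 in DC1b, -0.46 ± 0.33 in DC2 and 0.45 ± 0.31 in DC3 (adjusted p = 0.466, 0.156, 0.704 and 0.613), of which DC1b passed with the pool as a random block (1.05, adjusted p = 0.0477, by limma) and with no filter on low counts (1.17, adjusted p = 0.0467). In batch 1 alone they were 0.66, 1.00, -0.46 and 0.62. The libraries of batch 2 set against the same untreated libraries with no term for batch, an alternative added after the marker sums were seen, gave -2.24, -1.74, -3.34 and -2.72, all called (adjusted p = 0.0428, 0.0290, 0.00153 and 0.0120). The sign of the difference from untreated mice in DC1a, DC1b and DC3 thus depends on which TLI pools are used. Within TLI mice the order of the subsets was close to that of untreated mice in each batch, with DC2 highest in pools 1, 3 and 4 and DC3 lowest in all 4 pools. DC3 was 2.57-fold below DC2 (-1.36 ± 0.26, adjusted p = 0.00998), which was called in all 23 fits without a library and not with no term for batch (-0.75, adjusted p = 0.872) or with the batch 2 libraries alone (-1.62, adjusted p = 0.120). DC3 against DC1b was not called (-0.87 ± 0.24, adjusted p = 0.122) and was called with the pool as a block (-0.90, adjusted p = 0.0261), with no filter (-0.89, adjusted p = 0.0245) and without DC3 TLI pool 2 (-1.09, adjusted p = 0.0451). An antisense gene, Il1bos, shares 25 exonic bases with Il1b and had at most 6.4% of its count.

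**Figure D2:**
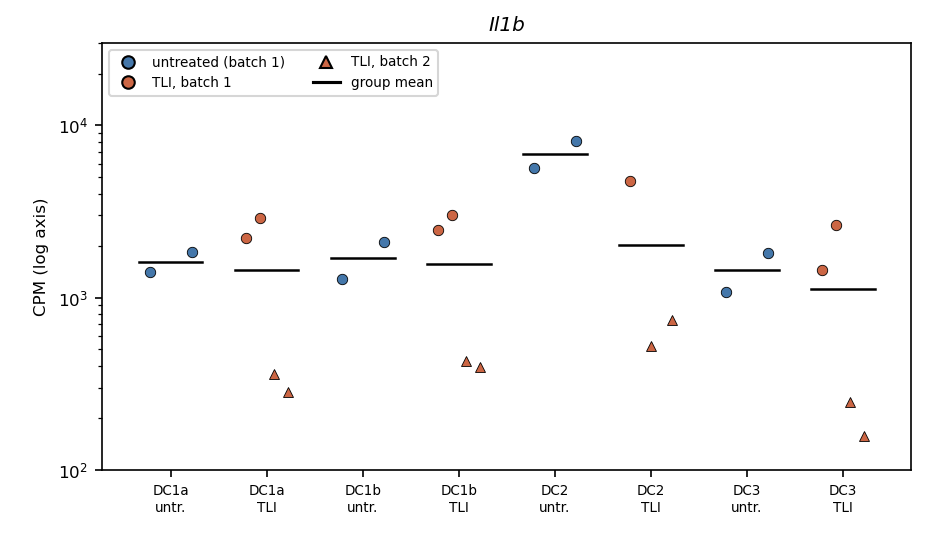
Il1b in CPM on a log axis in each library by subset and treatment (untr., untreated), with circles for batch 1, triangles for batch 2 and lines for group means. Untreated DC2 libraries (5648 and 8068 CPM) lie above every other library, and the 8 triangles lie below all 15 circles.

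Il1a, the gene of IL-1α, had no count in 8 of the 23 libraries and a median of 1.64 CPM over all of them. Both untreated libraries of DC1b and of DC2 had no count, untreated DC1a gave 1.64 and 5.86 CPM and untreated DC3 gave 5.87 and 0.588 CPM. After TLI, batch 1 gave 24.0 and 24.2 CPM in DC1b, 92.2 CPM in DC2, 23.2 and 47.6 CPM in DC3, and 4.04 and 0.404 CPM in DC1a. Batch 2 gave 0 and 7.11 CPM in DC1b, 1.99 and 0 CPM in DC2, 0 and 0 CPM in DC3, and 2.22 and 0.625 CPM in DC1a. The 5 libraries of DC1b, DC2 and DC3 from TLI batch 1 were thus the only ones above 10 CPM. No comparison was called by edgeR (TLI against untreated had adjusted p = 0.256 in DC1b and 0.420 in DC2), and a fitted fold against a group of zero counts measures no size. DESeq2 called TLI against untreated in DC1b (adjusted p = 0.000513) and DC2 (0.00349), and the random block called them too (0.0118 and 0.0279), with the DC2 value resting on 1 library. DESeq2 also called untreated DC2 against DC1a (adjusted p = 0.0489). Between TLI batches DESeq2 gave adjusted p = 0.00968 and edgeR 0.116. The T cell markers (60.2 to 328 CPM in TLI batch 1 and 2.39 to 35.8 CPM in batch 2) and the NK cell markers (65.1 to 2606 CPM and 0.0690 to 40.5 CPM) moved between the batches as Il1a did, and their part in its levels was not tested. The erythroid markers also moved between the TLI batches (19288 to 133558 CPM and 143 to 7144 CPM). In TLI batch 1 the neutrophil markers summed to 20563 and 1389 CPM in DC1b, 2310 CPM in DC2 and 89.3 and 4.73 CPM in DC3. In DC1b of batch 2 they summed to 1731 and 9026 CPM. The part of these 2 lists in the Il1a levels was not tested either. An antisense gene, Gm14023, shares 222 exonic bases with Il1a. Its count reached 19.5% of that of Il1a, with a median of 5.97%, over the 9 libraries with more than 100 Il1a counts. The share was not computed in the other libraries.

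Il18, the gene of the constitutively made pro-IL-18, varied less. In untreated mice it stood at 33.4 and 9.61 CPM in DC1a, 58.8 and 20.3 CPM in DC1b, 44.5 and 27.6 CPM in DC2, and 23.2 and 40.7 CPM in DC3, and all subsets overlapped. After TLI the highest values were 145 CPM in DC1b pool 1 and 156 CPM in DC2 pool 1. The other DC1b pools gave 70.2, 22.2 and 69.5 CPM and the other DC2 pools 51.9 and 81.2 CPM, while DC1a ran from 17.4 to 32.6 CPM and DC3 from 21.5 to 40.6 CPM. All 3 DC2 libraries of TLI mice were above both untreated ones, 3.12-fold by the fit (1.64 ± 0.74, SE, adjusted p = 0.525). No comparison of Il18 was called by edgeR or DESeq2.

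**Figure D3:**
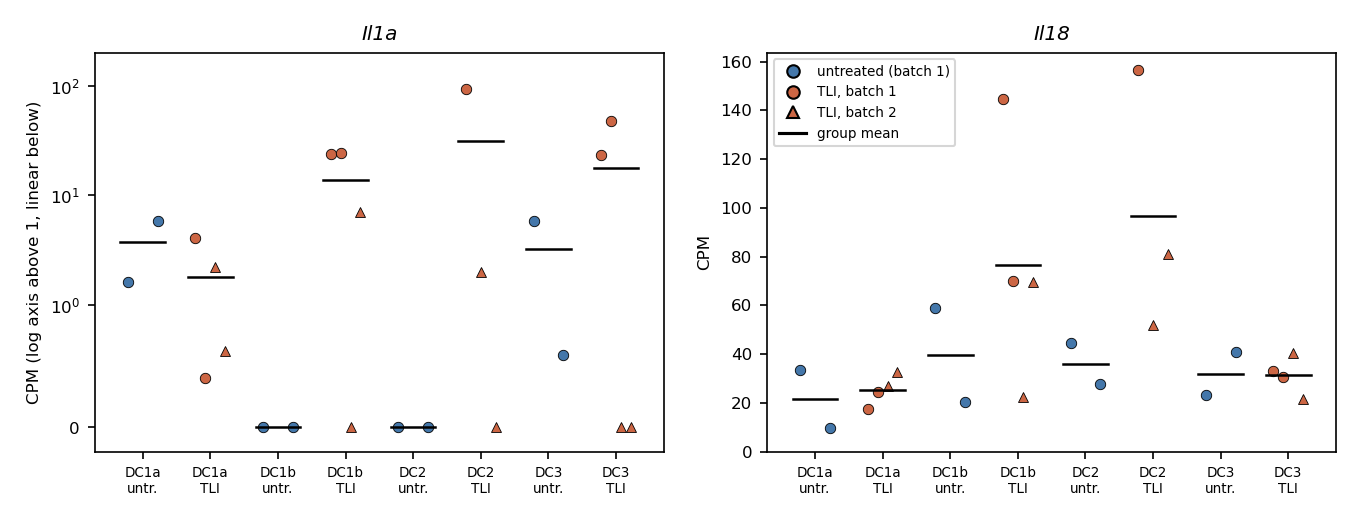
Level in CPM of Il1a (axis logarithmic above 1 CPM and linear below) and of Il18 (linear axis) in each library by subset and treatment (untr., untreated), with triangles for batch 2 and lines for group means. Il1a is at 0 in 8 libraries and above 10 CPM in 5 libraries of TLI batch 1, and Il18 exceeds 100 CPM in DC1b and DC2 of TLI pool 1 alone.

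Over the 10 genes, TLI against untreated mice gave no call within any subset by edgeR's quasi-likelihood test. That was 0 of 10 in DC1a (0.0102% of all genes called), DC1b (0.413%), DC2 (0.0612%) and DC3 (0.0255%). Before adjustment, p lay under 0.05 for 3 of 10 in DC1a, where 9.76% of all genes did so. DC1b had 3 of 10 (12.4%), DC2 had 3 of 10 (9.01%) and DC3 had 1 of 10 (10.4%). DESeq2 called 4 of 40, namely Nlrp3 and Il1a in DC1b, Il1a in DC2 and Pycard in DC3. The common biological coefficient of variation over all genes was 1.08. Leaving out Il1a and Nlrc4, which had groups at or near 0, the intervals farthest from 0 on either side were those for Nlrp3 in DC1b, 1.85 to 4.99, and Pycard in DC3, -1.82 to -0.64. The median difference of the 10 genes was 0.06 in DC1a, 1.14 in DC1b, -0.28 in DC2 and 0.31 in DC3, beside 0.15, 0.09, 0.02 and -0.05 over all genes. Whether the difference was equal in the 4 subsets was tested for each gene, and 0 of 10 passed (0.0357% of all genes called). At an unadjusted p under 0.05 there were 4 of 10, beside 7.82% of all genes. DESeq2 called Nlrp3 and Pycard, among 289 calls over all genes.

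**Figure D4:**
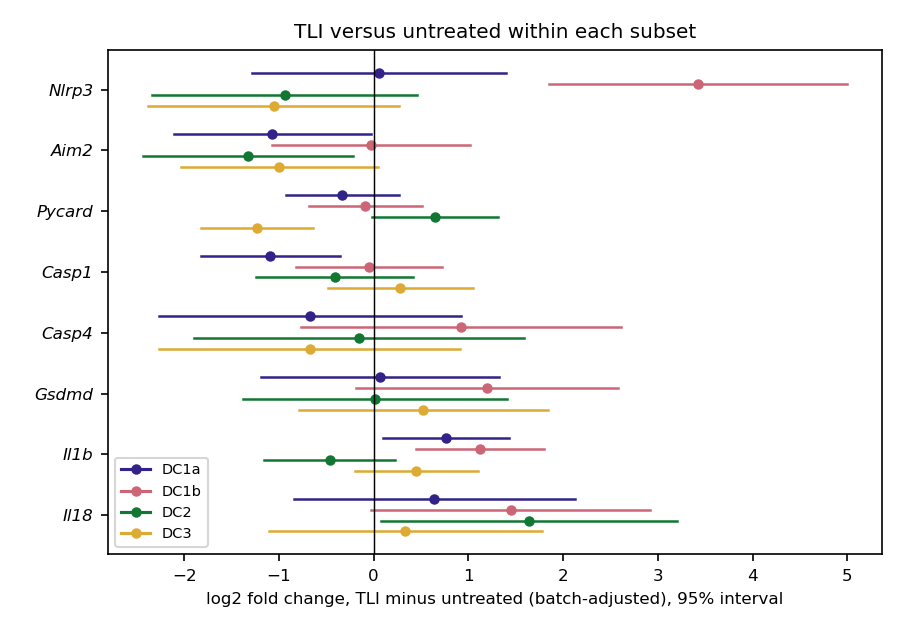
Fitted log2 fold change of TLI minus untreated, adjusted for batch, with its 95% interval, for 8 of the 10 genes in each subset (Il1a and Nlrc4 are left out because groups lie at or near 0). Most intervals include 0, and those of Nlrp3 in DC1b (1.85 to 4.99) and Pycard in DC3 (-1.82 to -0.64) lie farthest from it, on opposite sides.

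The other genes of the pathway were taken from a list of 56 symbols, of which 52 were in the matrix and 43 passed the filter. In untreated mice 3 of 258 pairs of gene and comparison were called, 1 of 43 each in DC2 against DC1a (1.91% of all genes called), DC2 against DC1b (0.398%) and DC3 against DC2 (0.837%). Txnip, whose product binds NLRP3 under oxidative stress, was higher in DC2 (100 and 151 CPM) than in DC1a (3.10 and 2.08 CPM), by 5.38 ± 1.3 on the log2 scale (adjusted p = 0.0425), a call kept in 9 of 23 fits without a library and lost with the pool as a block (adjusted p = 0.0765) and with no term for batch (0.0648). Gm15441 on the opposite strand shares 606 exonic bases with Txnip. Its count reached 311% of that of Txnip, with a median of 1.59%, over the 21 libraries with more than 100 Txnip counts. Untreated DC1a, with 89 and 54 counts, is not among these, so the Txnip counts are uncertain in some libraries. Trim30a, described as a negative regulator of the NLRP3 inflammasome, was lower in DC2 (42.0 and 85.4 CPM) than in DC1b (280 and 231 CPM, -1.93 ± 0.32, adjusted p = 0.00873) and in DC3 (209 and 175 CPM, adjusted p = 0.0254, and 0.0590 with the pool as a block). The first Trim30a call was lost without pool 1 of DC1b (0.0922) or of DC2 (0.140), and the second without DC2 pool 1 (0.299) or DC3 pool 1 (0.170) or 2 (0.122). Both Trim30a calls were lost with no filter (0.0756 and 0.206), with no term for batch (0.224 and 0.329), in batch 1 alone (0.0568 and 0.0841) and in the untreated libraries alone (0.0971 and 0.110). After TLI 4 of 258 were called, all lower in DC3, namely 2 of 43 against DC1b (1.11% of all genes called) and 2 of 43 against DC2 (1.37%). Il1rn, which encodes the IL-1 receptor antagonist, was at most 0.142 CPM in the 4 DC3 libraries, against 4.64, 38.5, 34.4 and 0.238 CPM in DC1b and 31.4, 0.753 and 32.7 CPM in DC2 (adjusted p = 0.0438 and 0.0424, and 0.153 and 0.0599 with the block), and the calls stood in 7 and 8 of 23 fits without a library. Both Il1rn calls were lost with no term for batch (0.0790 and 0.0747), in the TLI libraries alone (0.119 and 0.114) and in batch 2 alone (0.401 and 0.426). Mefv, the gene of the sensor pyrin, stood at 0.332, 0.111, 3.94 and 0 CPM in DC3, against 13.3 to 31.7 CPM in DC1b and 25.3 to 82.1 CPM in DC2 (adjusted p = 0.0359 and 0.0157, the first 0.0671 with the block). These stood in 13 and 22 of the 23 fits, and the second was lost without DC3 TLI pool 1 (0.0530). Both Mefv calls were lost in the TLI libraries alone (0.106 and 0.0613) and in batch 2 alone (0.520 and 0.448), and the first with no term for batch (0.0681). In untreated DC3, Mefv was at 30.4 and 28.4 CPM. TLI against untreated mice gave 0 of 172, where 0.0102% to 0.413% of all genes were called.

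Between the TLI batches 5 of the 43 were called, a lower share than the 17.4% called among all genes, so the count is no result about the pathway. Il1r2, the decoy receptor of IL-1, fell together with Il1b, from 19.4 to 340 CPM in batch 1 to 0.149 to 33.8 CPM in batch 2 (-3.74 ± 0.78, adjusted p = 0.00326). In untreated mice Il1r2 was highest in DC2 (239 and 542 CPM), as Il1b was. No untreated pair of Il1r2 was called by edgeR (DC2 against DC1a 4.28 ± 1.53, adjusted p = 0.211). Irak1 (-1.69 ± 0.30, adjusted p = 9.09e-04) and Myd88 (-2.65 ± 0.84, adjusted p = 0.0382), which carry the signal of the IL-1 receptor, and Panx1, a channel linked to the release of ATP (-6.28 ± 1.15, adjusted p = 0.00116), also fell, and Trim30a rose (0.77 ± 0.16, adjusted p = 0.00330). The Myd88 call stood in 10 of the 23 fits without a library. Its exons share 290 bases with Acaa1a on the opposite strand, so its counts are uncertain.

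The genes whose log2 CPM ran most like those of the members over the 23 libraries were described by Pearson's r, with no test, since the libraries share pools, batch and depth. For Il1b they were Gm4899 (r = 0.94), an identifier without a symbol (0.94) and Nfkbia (0.93), the gene of the inhibitor of NF-kB. For Casp1 they were Sorl1 (0.90), Gm9733 (0.87) and Ms4a4c (0.87), for Pycard Sptbn1 (0.81), Dpysl2 (0.80) and Fam117b (0.79), and for Nlrp3 Neurl3 (0.81), Gm12992 (0.76) and Gm12504 (0.76). The same measure gave 3 genes each for Il18 (Lcn2, 0.82, Fcgr1, 0.78, and Acta2, 0.78), Aim2 (Eif5b, 0.81, Rbm47, 0.77, and Gm26634, 0.76), Nlrc4 (Arhgef3, 0.78, 0610040F04Rik, 0.77, and Lamp2, 0.75), Il1a (Lat, 0.78, Trpt1, 0.77, and Ifng, 0.74), Casp4 (Mcl1, 0.74, Ccdc192, 0.72, and Gm38246, 0.71) and Gsdmd (Tsc22d4, 0.74, Mcur1, 0.73, and Ccrl2, 0.73). Among the members themselves the highest r were 0.53 (Nlrc4 with Casp1) and 0.52 (Casp1 with Casp4), and Nlrp3 and Il1b reached 0.39. The r largest in absolute size was -0.65, for Pycard with Il1b.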

How the data were processed

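RNA-seq of sorted spleen DCs was analysed in 23 libraries. The labels give cDNA from a SMART-seq kit for low input made on cells sorted directly into reaction buffer, while the methods of the study describe an RNA extraction. The authors trimmed reads with Trimmomatic, aligned them to GRCm38 with HISAT2 and made with StringTie the deposited table of estimated counts, which are whole numbers per gene not scaled for depth or length. Trimming and coverage-based counting can shift reads between overlapping genes. The tests had been planned for read counts and were run on these estimated values without rounding, since they were whole. Symbols and positions come from GENCODE M21, which holds 47224 of 47729 identifiers.

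CPM were computed from library totals, of 19256447 to 36997890 counts. Differences were tested with edgeR 4.0.16 (R 4.3.3) by its quasi-likelihood test after TMM scaling and the filter by group, in a single fit of 8 group means and batch (14 residual degrees of freedom), with Benjamini-Hochberg adjustment over 19597 genes and a threshold of 0.05. Intervals are 95%. Replicates are pools of mice, so p-values measure the spread between pools. A fit without the term for batch was tested on simulated data. It returned the direction of most of the genes that were set to differ, but few of these passed the threshold. The fit with that term was not tested in this way, so the simulation cannot say how often the main fit misses a difference. Alternatives used DESeq2 1.42.0, limma 3.58.1, other libraries, no filter, no batch term and pool as a block.

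Pairing comes from the pool numbers in the labels, which subsets of a pool share. Residuals of libraries of the same pool correlated at -0.162 to 0.0673 in TLI pools and -0.00585 to 0.0159 in untreated pools. The members and gene lists were chosen with earlier results of these data known. Named genes are the 10 members, the listed pathway genes past the threshold with a mean of at least 5 CPM in a group compared, at most 5 a result, and the 3 genes most like each member by Pearson's r. Pathway genes called between batches were named after their values were seen.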

Additional observations from a re-analysis of the deposited data

Results flagged for a closer look

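In groups of 4 libraries, 6 of 54 groups of gene and subset held a library that stood apart by Dixon's test, where chance alone gives about 2.7. Nlrp3 was 7.72 CPM in DC1a TLI pool 2, above the other 3 pools at 3.29 to 3.55 CPM. Aim2 was 34.2 CPM in DC1b TLI pool 3, above the others at 18.1 to 20 CPM. Il1rn was 6.80 CPM in DC1a TLI pool 2, where the others were at most 0.176 CPM. Mefv was 3.94 CPM in DC3 TLI pool 3, where the others were at most 0.332 CPM. Myd88 was 177 CPM in DC3 TLI pool 2, above the others at 34.9 to 54.1 CPM. Txnip was 4.95 CPM in DC1a TLI pool 3, below the others at 34.3 to 37.3 CPM.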

How the results depend on the processing

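Of the 10 genes, TLI against untreated gave 0 of 40 calls, and 1 with no filter on low counts (Il1b in DC1b), 4 with DESeq2, 4 with the replicate block (pool as a random effect, whose estimated correlation was 0.00267) and 5 with TLI batch 2 against untreated, which was chosen after seeing the data. Leaving out single libraries gave 0 to 1, and the 1 was Nlrp3 in DC1b. Untreated pairs gave 7 of 60, and 4 with no filter, 1 with no batch term, 1 with the untreated libraries alone, 13 with DESeq2 and 1 to 8 leaving out single libraries, with 1 without DC2 untreated pool 2, 3 without untreated pool 1 of DC1b or DC3, and 4 without either untreated pool of DC1a, untreated pool 2 of DC1b or untreated pool 1 of DC2. TLI pairs gave 5 of 60, and 3 with no batch term, 2 with batch 2 alone and 4 to 7 leaving out single libraries. The test of equal TLI differences gave 0 of 10, 2 with DESeq2 and 0 leaving out single libraries. The batch comparison gave 2 of 10 where 17.4% of all genes were called, so that count is no result about the members. It gave 3 with DESeq2 and 2 to 3 leaving out single libraries. The pool as a fixed block gave 5 of 60 for untreated pairs and 5 for TLI pairs, and apart from those named with the results it changed no other call among the 10 genes. The Il1b difference in DC1a turned to -0.10 with no batch term and to -2.24 with TLI batch 2 alone, and in DC1b to -1.74 with TLI batch 2 alone. The causes were not tested. Over all genes, TLI against untreated gave 100 calls, 3593 with DESeq2, 1436 with TLI batch 2, 1053 with the random block, 330 with no filter, 28 with no batch term 15 with batch 1 alone and 21 to 145 leaving out single libraries. Untreated pairs gave 894 calls, 7210 with DESeq2, 308 with no batch term and 364 to 1077 leaving out single libraries, TLI pairs 1619, 9007 with DESeq2, 912 with no batch term and 508 with batch 2 alone, the test of equal differences 7, 289 with DESeq2, 96 with no filter 3 with no batch term and 2 to 31 leaving out single libraries, and the batch comparison 3413 and 5566 with DESeq2. Each untreated group held 2 libraries, and Il1a and Nlrc4 had groups at few counts, so a comparison that was not called does not show that the groups were alike.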
